A study of Mus musculus with 18 samples.

Results

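The uninjured mouse renal cortex was described from the 9 sham libraries of a kidney transplantation series of 18 libraries: 3 replicates each at day 1, day 7 and day 14 after sham surgery. Of 54831 genes in the deposited table, the 13171 with at least 1 FPKM in at least 3 of the 9 sham libraries were kept. FPKM is the number of sequenced fragments per unit of gene length and of library total, so levels of different genes can be set side by side. In the other 9 libraries the kidney came from mice after transplantation with cold storage, again 3 each at day 1, day 7 and day 14, and they enter here only beside the sham days.

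Per the labels, all mice were wild type and RNA was taken from renal cortex. Strain, sex, age and the hour of collection were not given in the labels used here. The labels also describe streptozotocin diabetes, ischemia with reperfusion and a rat proximal tubule cell line for every library, which does not match the titles, so groups follow the titles. The table has mouse gene identifiers and markers of all nephron segments, which a line of proximal tubule cells would lack. Replicate numbers are given without a statement that each is its own animal, so p-values here measure spread among libraries that could be technical. Summed FPKM per sham library ran between 471737 and 524362, and 12355 to 12737 genes reached 1 FPKM. The libraries correlated with each other between 0.954 and 0.974 on the log2(FPKM + 1) scale. Sham day 14 library 3 stood apart from the other 8 on principal component 1 (18.3% of variance). Read depth is unknown, so no interval for counting error is given.

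The cortex is mostly proximal tubule, the segment that takes back filtered phosphate, glucose, amino acids, bicarbonate and small proteins through a brush border and pays for it with mitochondrial respiration. Further along, the thick ascending limb moves salt without water, the distal convoluted and connecting tubules tune sodium, calcium and magnesium, and the collecting duct sets final water, potassium and acid. Glomeruli, vessels and resident immune cells make up the rest. In bulk tissue, fewer cells of a type and less RNA per cell cannot be told apart.

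Few genes carried most of the signal. On average 12504 genes had at least 1 FPKM, 4669 at least 10, 491 at least 100 and 37 at least 1000, and the median of the genes kept was 6.23 FPKM. The 10 most abundant genes of a library held 27.3% ± 1.08 of its FPKM sum and the 100 most abundant 56.2% ± 1.20 (SD; n = 9 libraries here and for every mean ± SD over all sham libraries below). Genes of the mitochondrial chromosome led: mt-Co1, a subunit of cytochrome c oxidase, averaged 21382 ± 906 FPKM and mt-Cytb, a subunit of respiratory complex III, 13865 ± 400 FPKM. All genes of that chromosome made up 30.1% ± 0.901 of the sum. A further 11.7% ± 0.422 was listed under 7 unprocessed pseudogenes on chromosome 1 (24611535 to 24616197 in GRCm38), which are nuclear copies of mitochondrial sequence. Reads from both places cannot be told apart, so the share of mitochondrial sequence is better given as 41.8% ± 1.24. Without both, the 10 most abundant genes held 13.5% and the 100 most abundant 28.8%.

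Outside mitochondrial sequence, Kap stood highest. Kap, an androgen-driven secreted protein of the mouse proximal tubule (ENSMUSG00000032758, chromosome 6, 133849851 to 133853762, minus strand, GRCm38), had a lowest level of 16524, a median of 19007 and a highest of 23628 FPKM over the 9 libraries. Gpx3, the secreted glutathione peroxidase that the proximal tubule releases into plasma (ENSMUSG00000018339, chromosome 11, 54902453 to 54910377, plus strand), followed at 6633, 7066 and 8286 FPKM for the lowest, the median and the highest library. The iron-storage chains Fth1 and Ftl1 averaged 2152 ± 156 and 1155 ± 117 FPKM. The monooxygenase Cyp4b1 averaged 1481 ± 148 FPKM. Selenop, a selenium carrier, averaged 1375 ± 102 FPKM, Ass1, which makes the precursor of arginine, 1161 ± 84.1 FPKM, and Miox, the first enzyme of inositol breakdown, 1020 ± 48.5 FPKM. The fatty acid transporter and acyl-CoA synthetase Slc27a2 stood at 986 ± 57.8 FPKM. Of the 30 genes highest in sham once predicted gene models were left out, Keg1, an acyltransferase family member, had a wide spread at 925 ± 216 FPKM, with libraries between 625 and 1225 FPKM.

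Transport genes of the proximal tubule were abundant in every library. Slc34a1, the sodium-phosphate cotransporter of the brush border (ENSMUSG00000021490, chromosome 13, 55398187 to 55415592, plus strand), had 1340, 1474 and 1562 FPKM in its lowest, median and highest library. Atp1b1, the beta subunit of the sodium pump, which drives that transport and also serves other segments, averaged 636 ± 45.3 FPKM. Pdzk1, a scaffold for brush border transporters, averaged 327 ± 19.4 FPKM and Slc5a2, the main glucose transporter SGLT2, 181 ± 17.4 FPKM. All 25 genes of the list of sodium, phosphate, glucose and acid transport passed the filter, 11 of them with a mean of at least 100 FPKM. Among genes of amino acid transport, Cltrn, the collectrin that carries neutral amino acid transporters to the membrane, averaged 1152 ± 101 FPKM. The amino acid transporter Slc7a13 averaged 327 ± 42.1 FPKM, and Slc3a1, the heavy chain of the cystine transporter, 213 ± 17.6 FPKM. Urate and organic anion transport was led by Slc22a12, the urate exchanger URAT1, at 389 ± 35.8 FPKM, ahead of the organic anion transporters Slc22a6 and Slc22a8 at 144 ± 15.5 and 105 ± 9.64 FPKM.

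The receptors that recover filtered protein were unequal in level. Lrp2, which encodes megalin, averaged 244 ± 34.4 FPKM and its partner Cubn, which encodes cubilin, 68.4 ± 10.01 FPKM. Brush border hydrolases were led by Acy3, an aminoacylase, at 709 ± 102 FPKM, by the metalloprotease meprin subunit Mep1a at 421 ± 33.2 FPKM, and by Ggt1, which splits glutathione, at 391 ± 34.1 FPKM. For glucose synthesis, Fbp1 averaged 363 ± 35.7, Pck1, the committed step, 356 ± 75.2, and G6pc, the last step, 181 ± 42.8 FPKM. Pck1 and G6pc had the wider spread of the 3: Pck1 ran between 233 and 489 FPKM and G6pc between 120 and 262 FPKM over the 9 libraries. The 50 listed nuclear genes of oxidative phosphorylation all passed and summed to 8652 to 10957 FPKM per library, against 124356 to 142691 FPKM for the 13 protein genes of the mitochondrial chromosome. Kl, the co-receptor for the phosphate hormone FGF23, averaged 167 ± 14.1 FPKM. The vitamin D enzymes were far lower and varied more: Cyp24a1, which breaks the hormone down, ran between 7.89 and 63.0 FPKM, and Cyp27b1, which makes it, between 0.310 and 5.55 FPKM.

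Of the later segments, the distal convoluted and connecting tubule list summed to 3664 to 4064 FPKM per library, the thick ascending limb list to 1364 to 1755 FPKM and the principal cell list to 174 to 223 FPKM, against 4552 to 5092 FPKM for sodium, phosphate, glucose and acid transport of the proximal tubule. In the thick ascending limb, Umod, which encodes uromodulin (ENSMUSG00000030963, chromosome 7, 119462711 to 119479282, minus strand), had 497, 612 and 718 FPKM in its lowest, median and highest library. Egf averaged 310 ± 34.5 FPKM and Slc12a1, the furosemide-sensitive cotransporter, 177 ± 29.9 FPKM. In the distal convoluted and connecting tubule the kallikrein Klk1 averaged 1049 ± 64.3 FPKM, the sodium pump regulator Fxyd2, which the thick ascending limb also uses, 914 ± 68.5 FPKM, the calcium-binding S100g 630 ± 60.9 FPKM and Slc12a3, the thiazide-sensitive cotransporter, 329 ± 62.6 FPKM. Principal cell genes stood lower. Hsd11b2, which shields the mineralocorticoid receptor from glucocorticoids, averaged 38.5 ± 4.12 FPKM, and the water channel Aqp2 20.7 ± 5.05 FPKM with libraries between 13.7 and 30.1 FPKM. Of intercalated cell genes, Car2, a carbonic anhydrase that other segments use too, averaged 160 ± 14.5 FPKM and the proton pump subunit Atp6v1b1 29.3 ± 3.72 FPKM.

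Glomerular, vascular and immune markers were low. Nphs1, which encodes nephrin of the slit diaphragm, averaged 4.63 ± 0.354 FPKM, and Podxl, the podocyte surface sialomucin, 34.3 ± 2.94 FPKM. Ren1 averaged 17.2 ± 4.97 FPKM, between 9.82 and 25.6 FPKM. Summed over all listed genes, whether or not they passed the filter, levels were 200 to 287 FPKM for 23 endothelial genes (21 passed), 137 to 226 FPKM for the macrophage list (16 of 23 passed) and 4.94 to 26.8 FPKM for lymphocytes and plasma cells (3 of 24 passed). None of 13 neutrophil genes and none of 9 urothelial genes passed, and Ly6g, Mpo, Elane and Camp were listed at 0 in all 9 libraries. Of other tissues near the kidney, 7 of 16 adipose, 2 of 10 adrenal cortex and 1 of 12 skeletal muscle genes passed. Hemoglobin and other red cell genes summed to 186 to 380 FPKM. The injury markers Havcr1 and Lcn2 stayed at or below 1.06 and 1.15 FPKM in every sham library. Other genes linked to tubular injury were not low: the list of 30, of which 19 passed, summed to 571 to 741 FPKM per library, led by Spp1 and Clu. Xist, the transcript of the inactive X chromosome, was at or below 0.05 FPKM in all 9 libraries, and Ddx3y, on the Y chromosome, lay between 12.4 and 18.7 FPKM.

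**Figure D1:**
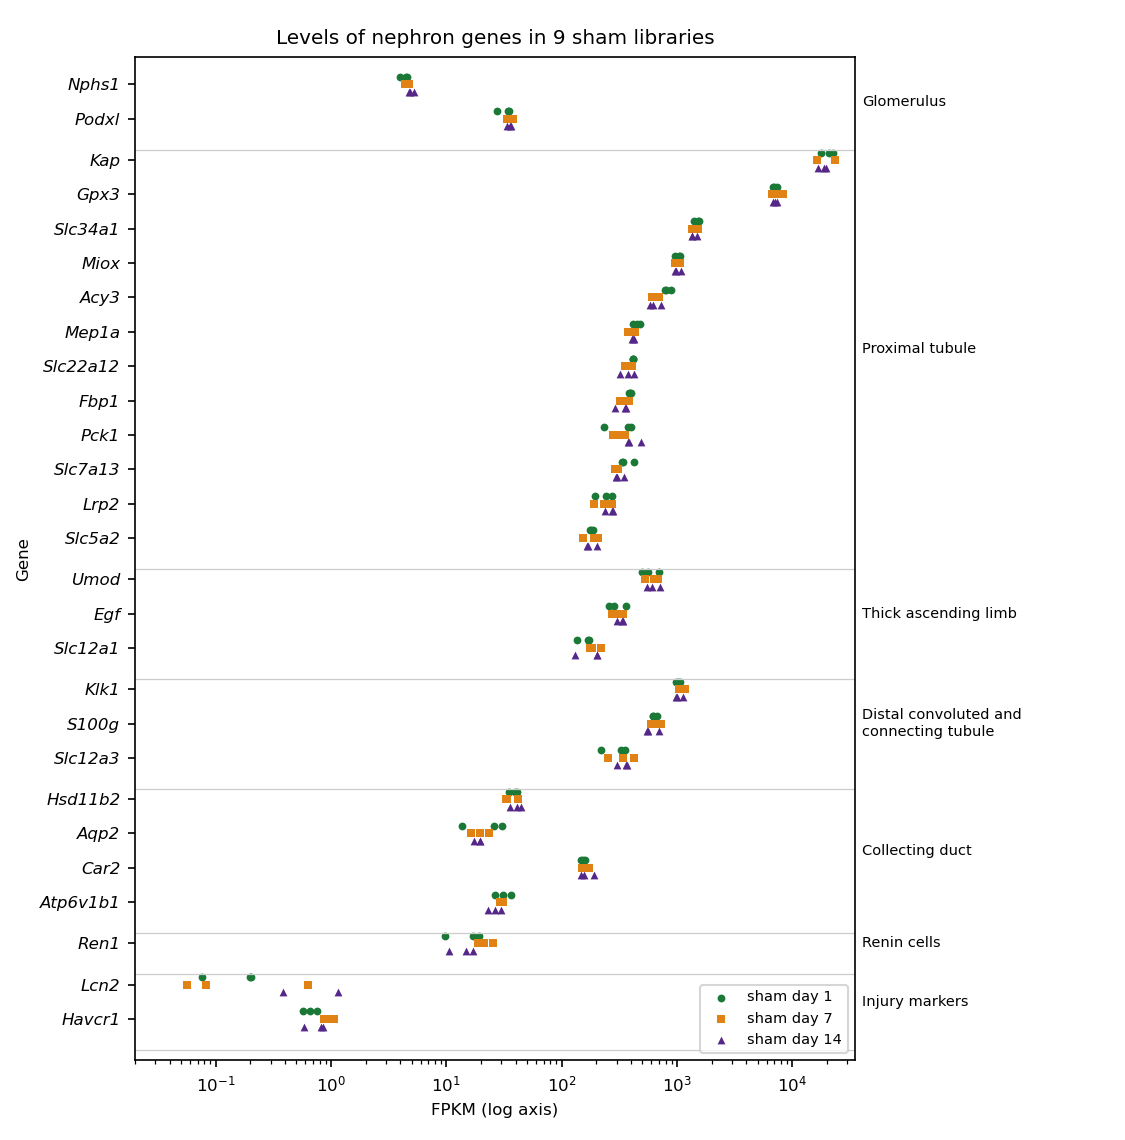
Levels of genes, grouped by nephron segment or use, in 3 sham libraries each of day 1 (circles), day 7 (squares) and day 14 (triangles); each point is 1 library and the axis is FPKM on a log scale. Kap and Gpx3 stand highest, and collecting duct genes lie mostly between 10 and 100 FPKM. The injury markers Havcr1 and Lcn2 lie near or below 1 FPKM. Lcn2 was listed at 0 in 1 day 14 library, which a log axis cannot show.

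**Figure D2:**
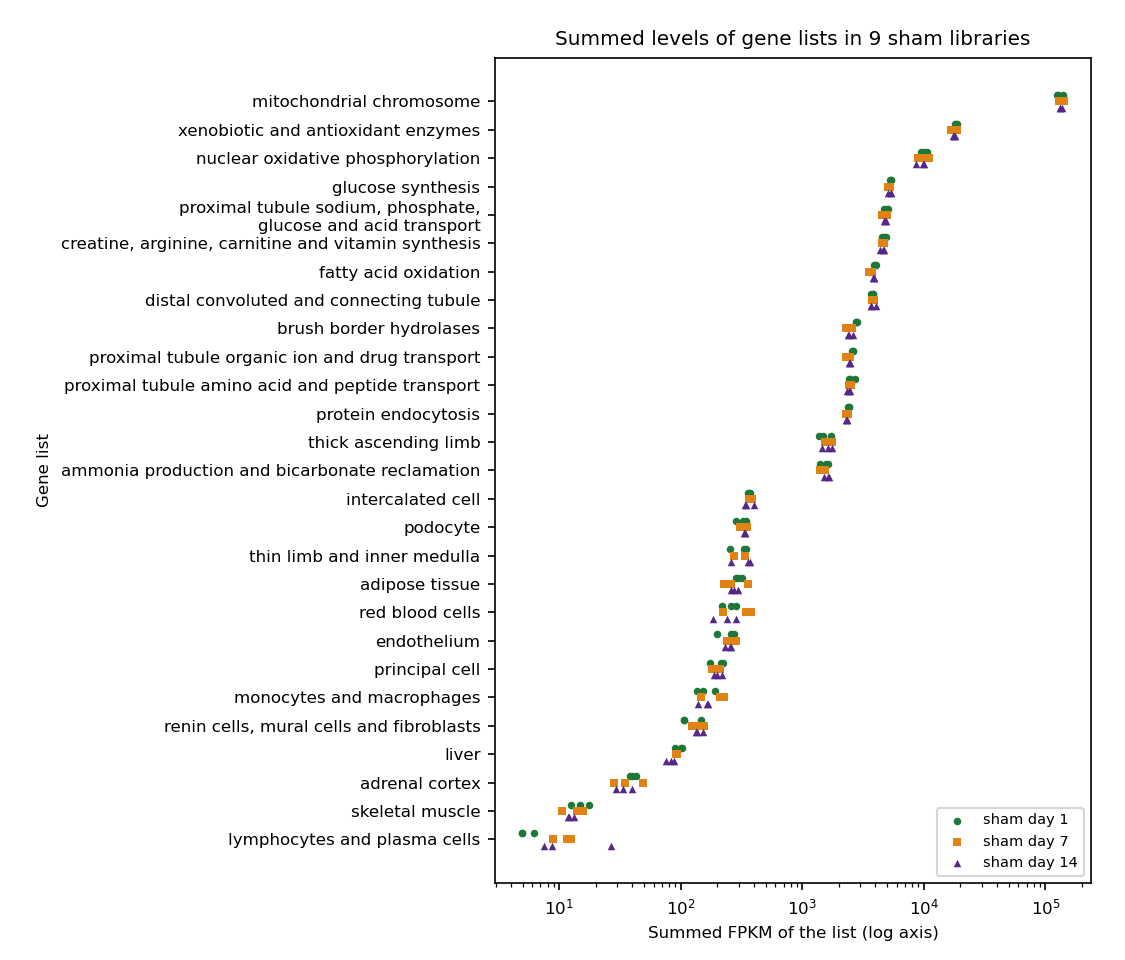
Summed FPKM of gene lists for nephron segments, metabolism and other cell types (log axis), with 1 point per sham library and symbols by day as labelled; the neutrophil and urothelium lists, which summed to near 0, are not drawn. The 3 days overlap on most lines, and the sums fall off by orders of magnitude between the mitochondrial chromosome at the top and lymphocytes at the bottom.

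The next question was which genes drifted between the sham days. No gene was called in any of the 3 comparisons or over the 3 days together. With limma on log2(FPKM + 1) and Benjamini-Hochberg adjustment over all 13171 genes, 0 genes (0.0%) had an adjusted p below 0.05 for day 7 over day 1, day 14 over day 7 or day 14 over day 1, and 0 in the F test across the 3 days. The smallest adjusted p-values were 0.9997, 0.274 and 0.207 for the 3 comparisons and 0.268 for the F test. At an unadjusted p below 0.05 there were 504 genes (3.83%) for day 7 over day 1, 710 (5.39%) for day 14 over day 7 and 915 (6.95%) for day 14 over day 1, and 716 (5.44%) in the F test. The 95% interval of the log2 fold change lay within -1 and 1 for 87.1%, 85.6% and 84.8% of genes in these comparisons. A p above the threshold does not show that levels were equal. The half-width of the 95% interval, which is not adjusted for the number of genes, was 0.45 for the typical gene. With 3 libraries a day, larger differences also went uncalled, such as 1.19 for Hsph1 in day 14 over day 1. Calls appeared in single alternatives: 1 gene, Hsph1, for day 14 over day 1 when all 18 libraries shared 1 spread (limma adjusted p = 0.0292), Kctd12 for day 7 over day 1 when only those days entered, and up to 3 genes without sham day 14 library 1.

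Intervals of most nephron genes lay within that bound. Over all tested genes, 79.0% had intervals within -1 and 1 in all 3 comparisons, and of genes averaging at least 100 FPKM 97.6% did, so level matters for this count. All 19 genes of protein endocytosis, all 22 brush border hydrolases, all 18 of glucose synthesis, all 13 of the mitochondrial chromosome and all 50 of nuclear oxidative phosphorylation did. The counts were 23 of 25 for sodium, phosphate, glucose and acid transport, 17 of 20 for the thick ascending limb, 23 of 26 for the distal convoluted and connecting tubule, 12 of 15 for principal cells, 17 of 19 for intercalated cells and 21 of 24 for podocytes. Genes of the thin limb and inner medulla stood lower, with 5 of 11. Day 14 over day 1, the interval ran between -0.29 and 0.09 for Slc34a1, between -0.20 and 0.42 for Umod, between -0.23 and 0.67 for Slc12a3 and between -0.73 and 0.31 for Aqp2. The order of levels among these genes was the same in every sham library: Slc34a1, then Umod, then Slc12a3, then Aqp2.

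Genes of protein folding showed a common direction at day 14 without passing the test. Chaperones hold and fold new or damaged proteins: in the cytosol they are driven by heat shock factors, and in the endoplasmic reticulum by the unfolded protein response. The genes below were chosen after their values were seen. The 29 genes of the heat shock and protein folding list, all of which passed the filter, summed to 2437 to 2625 FPKM at day 1, 2349 to 2741 FPKM at day 7 and 3153 to 4037 FPKM at day 14. Their median log2 fold change was 0.45 for day 14 over day 1, against -0.03 for all genes, and 0.41 for day 14 over day 7, against -0.02. For 15 of 29 all 3 day 14 libraries lay above all 3 of day 1 and for 1 below, where the background was 4.98% above and 6.95% below. For 13 of 29 (44.8%) all 3 day 14 libraries lay above all 6 earlier sham libraries, against 187 of 13171 genes (1.42%). None had an adjusted p below 0.05.

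Of 10 listed genes of the endoplasmic reticulum 8 lay above day 1 in all 3 day 14 libraries, and of 12 cytosolic genes 6 did. Hspa5, which encodes BiP, the main chaperone of that compartment (ENSMUSG00000026864, chromosome 2, 34771970 to 34777547, plus strand), had 134, 174 and 161 FPKM at day 1, 152, 127 and 173 FPKM at day 7, and 353, 261 and 239 FPKM at day 14. The lowest day 14 library was above the highest earlier one. Over day 1 its log2 difference at day 14 was 0.85 ± 0.16 (SE; limma adjusted p = 0.275). Hsp90b1, the HSP90 of the endoplasmic reticulum (ENSMUSG00000020048, chromosome 10, 86690209 to 86705509, minus strand), had 151, 160 and 165 FPKM at day 1, 158, 150 and 192 FPKM at day 7, and 275, 226 and 282 FPKM at day 14, which gave 0.71 ± 0.12 on the log2 scale over day 1 (limma adjusted p = 0.207). Creld2, a small disulfide isomerase of the same compartment (ENSMUSG00000023272, chromosome 15, 88819646 to 88826683, plus strand), had 11.6, 9.38 and 7.999 FPKM at day 1, 9.39, 9.12 and 9.93 FPKM at day 7, and 23.8, 24.0 and 16.5 FPKM at day 14, which gave 1.07 ± 0.17 over day 1 (limma adjusted p = 0.207). The 2 day groups did not overlap for any of these 3 genes. The disulfide isomerase Pdia4 had 36.6, 36.0 and 34.0 FPKM at day 1, 38.1, 28.3 and 34.1 FPKM at day 7, and 64.8, 53.0 and 48.6 FPKM at day 14. Sdf2l1, a partner of BiP, was near 2 to 5 FPKM before day 14 and had 13.2, 8.96 and 6.68 FPKM there. Calr, the lectin chaperone calreticulin, overlapped with day 7, and Manf, which is secreted under stress, had 50.3, 22.9 and 12.1 FPKM at day 14, its highest and its lowest library among all 9.

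Some cytosolic chaperones were high in every day 14 library and the HSP70 genes were not. Hsph1, the HSP110 partner of HSP70 (ENSMUSG00000029657, chromosome 5, 149614287 to 149636376, minus strand), had 33.5, 28.3 and 42.7 FPKM at day 1, 43.7, 39.8 and 38.3 FPKM at day 7, and 99.3, 80.6 and 62.5 FPKM at day 14, which gave a log2 difference of 1.19 ± 0.18 over day 1 (limma adjusted p = 0.207). Hsp90aa1, the inducible HSP90, had 118, 142 and 143 FPKM at day 1, 140, 122 and 190 FPKM at day 7, and 248, 227 and 296 FPKM at day 14. The groups of day 14 and day 1 did not overlap for either gene. In contrast, the inducible HSP70 genes Hspa1a and Hspa1b, near-identical copies whose reads may be split between them, were high in only part of the day 14 libraries. Hspa1b had 1.93, 4.67 and 4.68 FPKM at day 1, 5.03, 6.26 and 5.71 FPKM at day 7, and 39.8, 15.3 and 0.955 FPKM at day 14. The constitutive Hspa8 had 1027 and 942 FPKM in the first 2 day 14 libraries and 597 FPKM in library 3, below all 6 earlier values. Cirbp, an RNA-binding protein induced by mild cold, went the other way, with 19.5, 18.7 and 18.7 FPKM at day 1, 15.2, 18.1 and 14.1 FPKM at day 7, and 8.69, 13.5 and 8.50 FPKM at day 14 (log2 fold change -0.86 ± 0.17 over day 1, limma adjusted p = 0.306). Library 3, which lacked the HSP70 levels of the others, is the one that stood apart on principal component 1. The list's median for day 14 over day 1 was 0.65 without it, 0.38 without library 2 and 0.31 without library 1.

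**Figure D3:**
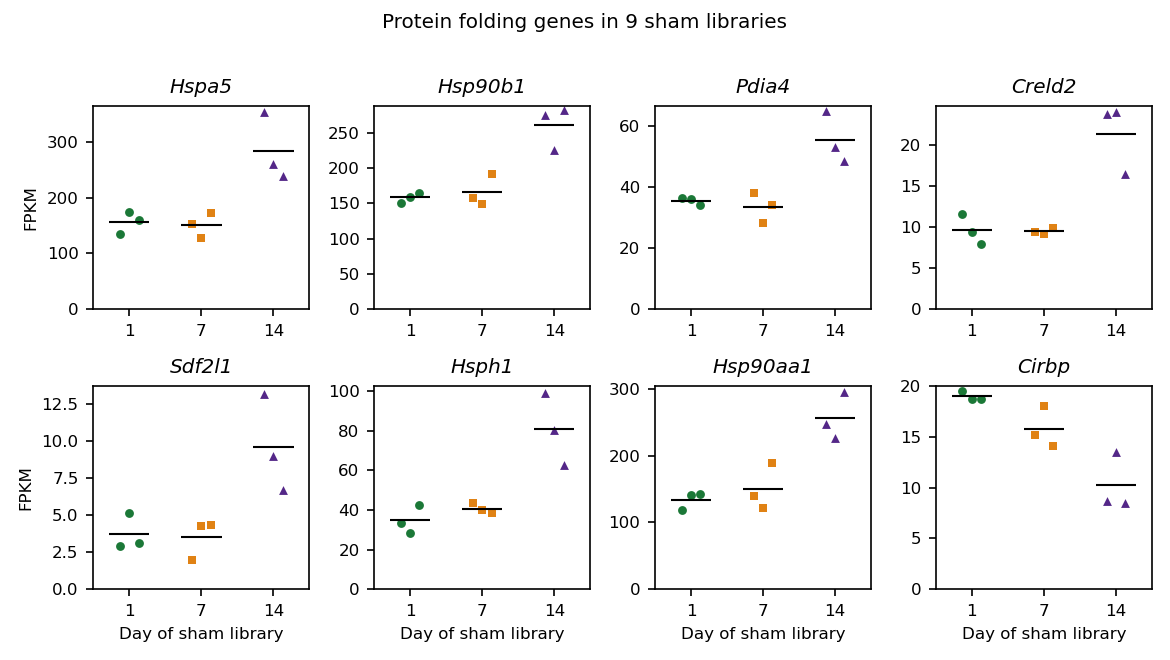
FPKM of 8 genes of the heat shock and protein folding list in the sham libraries of day 1, day 7 and day 14; each point is 1 library, the short line is the mean of 3, and every axis starts at 0. For Hspa5, Hsp90b1, Pdia4, Creld2, Sdf2l1, Hsph1 and Hsp90aa1 all 3 day 14 points lie above all 6 earlier points, and for Cirbp all lie below.

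Summed markers of other cell types did not lie above both earlier days at day 14. The liver list lay below, with 89.3 to 103 FPKM at day 1, 90.6 to 92.8 FPKM at day 7 and 75.7 to 88.0 FPKM at day 14. Summed macrophage markers had 137 to 191 FPKM at day 1, 145 to 226 FPKM at day 7 and 137 to 167 FPKM at day 14, red cell genes 218 to 282, 223 to 380 and 186 to 286 FPKM, and endothelial genes 200 to 275, 238 to 287 and 229 to 258 FPKM on those days. Immediate early genes, which respond to handling and dissection, summed to 102 to 127 FPKM at day 1, 70.9 to 153 FPKM at day 7 and 65.3 to 105 FPKM at day 14. Whether the days differed in how or when tissue was taken was not tested, since the labels do not give it.

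Transplant libraries did not show the same day 14 levels. Over the same days the list's median log2 fold change among transplant libraries was -0.26 for day 14 over day 1, with 0 genes called higher and 8 lower, where 8.09% of all genes were called higher and 10.7% lower. For day 14 over day 7 in transplant libraries, 0 were called higher and 2 lower (background 0.486% lower). Hspa5 had 145, 145 and 109 FPKM in transplant libraries of day 14, against 353, 261 and 239 FPKM in sham libraries of that day. Hsph1 had 24.95, 25.9 and 29.6 FPKM in transplant libraries of day 14, against 99.3, 80.6 and 62.5 FPKM in sham. The difference between the transplant and sham values of day 14 over day 7 was itself tested in a fit of all 18 libraries and was called for 8 of 29 genes, where the background was 0.774%. Of these 8, 1 (Hspa5) was itself called in the transplant libraries. The sham day 14 values that singled out this list also enter the difference, so the count of 8 is not separate evidence. For Hspa5 the difference was -2.07 ± 0.24 on the log2 scale (SE, limma adjusted p = 0.000236). Transplant libraries of day 7 were themselves high for Hspa5, with 314, 270 and 313 FPKM, against 152, 127 and 173 FPKM in sham libraries of day 7. Over all genes the median log2 fold change for day 14 over day 7 was -0.16 among transplant libraries and -0.02 among sham libraries.

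The promoters of some of these genes share a written motif, shown here because they belong to the group that lay above all earlier days. The motifs were looked up after the day 14 values had been seen. The endoplasmic reticulum stress element, searched on both strands as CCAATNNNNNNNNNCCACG, is bound in mammals by the factors of the unfolded protein response. The sequences are the 250 bases before the RefSeq start (GRCm38.p6), 5′ to 3′ on the gene's strand, and capitals mark each match, which for a match on the other strand reads as the reverse complement. They lie at chr2:34771840-34772089 (plus strand) for Hspa5, chr10:86705445-86705694 (minus strand) for Hsp90b1 and chr15:88819396-88819645 (plus strand) for Creld2.
Hspa5: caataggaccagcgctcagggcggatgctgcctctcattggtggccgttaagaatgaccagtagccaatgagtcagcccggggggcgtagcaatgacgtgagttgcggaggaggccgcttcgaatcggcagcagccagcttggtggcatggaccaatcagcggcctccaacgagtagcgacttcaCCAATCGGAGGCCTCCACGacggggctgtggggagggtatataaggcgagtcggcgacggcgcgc
Hsp90b1: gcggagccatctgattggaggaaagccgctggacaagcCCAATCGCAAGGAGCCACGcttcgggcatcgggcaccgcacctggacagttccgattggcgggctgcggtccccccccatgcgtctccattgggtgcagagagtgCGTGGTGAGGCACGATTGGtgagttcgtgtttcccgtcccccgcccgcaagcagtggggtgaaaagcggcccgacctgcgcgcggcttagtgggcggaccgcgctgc
Creld2: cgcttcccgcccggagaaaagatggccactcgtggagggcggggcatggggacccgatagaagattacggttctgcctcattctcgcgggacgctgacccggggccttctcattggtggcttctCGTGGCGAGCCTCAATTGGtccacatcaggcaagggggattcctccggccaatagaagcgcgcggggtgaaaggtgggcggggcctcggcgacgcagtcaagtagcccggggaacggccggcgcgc

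Promoters from 250 bases before to 50 after the start were searched for all 32851 RefSeq entries, of which 39 (0.119%) held this element. Of the 24 list genes with an entry, 5 held it: Hspa5, Hsp90b1, Pdia6, Creld2 and Calr. Those 5 are among the genes that prompted the search, so only the other 12 tested genes with the element are described: their median log2 fold change was 0.19 for day 14 over day 1, against -0.03 for tested genes without it, and 4 of the 12 had day 14 entirely above day 1 (background 4.98%). They include the ubiquitin ligase Syvn1, the chaperone Canx and the co-chaperone Dnajc3. The rest are Acacb, Acnat2, Alg12, Derl3, Hnrnpa3, Pan2, Spats2l, Xlr3a and Xlr3b. Syvn1 itself stood at place 13 by unadjusted limma p for day 14 over day 7, predicted models left out. The 12 are thus not a set separate from the day 14 values, and whether the element drove any level was not tested. The heat shock element, searched as GAANNTTCNNGAA on both strands, stood in 198 promoters (0.603%). It was found for Hsph1, Hspd1, Hspe1 and Chordc1, the last with the most matches, which overlap at the start of the gene (chr9:18292017-18292286, plus strand, with capitals marking the run they cover).
Chordc1: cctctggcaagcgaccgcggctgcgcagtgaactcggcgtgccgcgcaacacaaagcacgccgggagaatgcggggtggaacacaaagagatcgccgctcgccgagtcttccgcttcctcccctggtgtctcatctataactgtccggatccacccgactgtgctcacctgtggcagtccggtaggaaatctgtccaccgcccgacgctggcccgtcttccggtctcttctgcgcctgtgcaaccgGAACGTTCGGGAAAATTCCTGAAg

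Outside the list, the 49 tested genes with the heat shock element had a median log2 fold change of -0.01 for day 14 over day 1, and 4 of them had day 14 entirely above day 1 (background 4.98%). Chordc1, a co-chaperone of HSP90, had 10.6, 11.9 and 16.3 FPKM at day 1, 12.8, 22.5 and 13.6 FPKM at day 7, and 27.9, 17.9 and 19.5 FPKM at day 14, with days 7 and 14 overlapping.

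A few genes outside the list, also chosen after their values were seen, had the same order of days. Ahsa1, which activates HSP90, had 34.0, 32.1 and 33.0 FPKM at day 1, 31.9, 32.3 and 34.9 FPKM at day 7, and 49.9, 45.5 and 48.8 FPKM at day 14. Alas1, the first step of heme synthesis, had 46.1, 27.8 and 44.5 FPKM at day 1, 24.3, 38.7 and 32.9 FPKM at day 7, and 110, 59.7 and 87.5 FPKM at day 14. P4ha1, a collagen prolyl hydroxylase, had 12.9, 13.5 and 13.4 FPKM at day 1, 14.6, 12.8 and 17.0 FPKM at day 7, and 28.3, 20.3 and 25.5 FPKM at day 14. In all 3 genes the day 14 libraries lay above the 6 earlier ones. Upp2, a uridine phosphorylase, lay below them, with 4.98, 5.97 and 4.60 FPKM at day 14 against 6.74 to 11.4 FPKM before.

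Most male-biased genes had lower means at day 7 than at day 1, again without a call. The list of 24 genes known to be higher in male mouse kidney, many of them set by androgen, had a median log2 fold change of -0.22 for day 7 over day 1, with 22 of 24 below 0, where 52.4% of all tested genes were below 0. Other lists leaned the same way: 15 of 17 glucocorticoid-responsive genes, 38 of 50 xenobiotic and antioxidant enzymes and 20 of 25 genes of sodium, phosphate, glucose and acid transport were below 0. For 6 of the 24 male-biased genes all 3 day 7 libraries lay below those of day 1 (background 5.11%), and for 1 above (background 3.99%). The 3 genes given next were chosen after their values were seen. Slco1a1, an organic anion transporter of the brush border, had 51.4, 71.2 and 59.6 FPKM at day 7, against 95.7, 89.7 and 121 FPKM at day 1, a log2 difference of -0.74 ± 0.16 (SE; limma adjusted p = 0.9997). Ugt2b37, a glucuronosyltransferase, had 29.1, 27.5 and 31.3 FPKM at day 7, against 42.7, 53.8 and 62.6 FPKM at day 1, and Hsd17b11, a steroid dehydrogenase of lipid droplets, 70.6, 82.0 and 96.4 FPKM at day 7, against 117, 120 and 132 FPKM at day 1. The groups did not overlap for these 3. Kap overlapped, with 16524, 16528 and 23628 FPKM at day 7 against 17661, 22682 and 20651 FPKM at day 1.

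The clock genes Arntl and Dbp varied between libraries of the same day. The core clock is a loop in which ARNTL with CLOCK or NPAS2 drives its own repressors and the output factors DBP and TEF, so Arntl and Dbp peak at opposite times of day in peripheral tissue. No clock gene was called between sham days. The list of the circadian clock and its output had 24 tested genes, some of them outside the core loop. The difference between transplant and sham contrasts was called for 3 of the 24 for day 7 over day 1 (background 4.24%). It was called for 1 for day 14 over day 7 (background 0.774%) and for 2, Hlf and Cdkn1a, for day 14 over day 1 (background 10.7%). Arntl had 1.09, 5.54 and 2.56 FPKM at day 1, 6.69, 5.05 and 3.52 FPKM at day 7, and 4.17, 5.62 and 1.17 FPKM at day 14. Dbp had 28.5, 5.27 and 10.5 FPKM at day 1, 4.25, 4.45 and 10.4 FPKM at day 7, and 7.35, 9.78 and 17.3 FPKM at day 14. Library 1 of day 1 and library 3 of day 14 had the lowest Arntl and the highest Dbp. Arntl was compared with the other 23 tested genes of that list across the 9 libraries by exact permutation. The p-values were adjusted over these and 2 other pairs (25 in all), so the adjusted values depend on those 2. The 2 are Bcl6 with Socs2 and Bcl6 with Cish, the latter chosen after its values were seen. Of the 23, 7 had an adjusted p below 0.05 for Pearson's r and 3 of them for Spearman's rho as well. Those 3 were Arntl with Npas2, Per3 and Dbp. Other clock genes of the list were not among the 7, so the list did not vary as a whole with Arntl. Pearson's r was -0.06 for Clock, -0.36 for Per1, -0.52 for Per2 and 0.06 for Cry1. It was -0.76 for Cry2, -0.21 for Nr1d1 and -0.23 for Hlf. For Arntl and Dbp, Pearson's r was -0.907 (exact permutation p = 0.000852, adjusted 0.0106) and Spearman's rho -0.883 (p = 0.00308, adjusted 0.0376). Without the 2 libraries farthest from the median of Arntl r was -0.714. With Per3, a repressor of the loop, r was -0.914 (exact permutation, adjusted p = 0.0106), rho -0.867 (adjusted p = 0.0376) and r without the 2 farthest -0.677. With Npas2 r was 0.858 (exact permutation, adjusted p = 0.0182), rho 0.917 (adjusted p = 0.0328) and r without the 2 farthest 0.626. For Tef r was -0.934 (exact permutation, adjusted p = 0.0106). Its rho of -0.833 narrowly missed the threshold with all 25 pairs adjusted together (exact permutation p = 0.00827, adjusted 0.0517). Adjustment over the 23 Arntl pairs alone was not made. Within days, after the day means were removed, r was -0.885 for Dbp, -0.937 for Per3 and 0.917 for Npas2. The hour of collection is not given, and its part in these values was not tested.

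**Figure D4:**
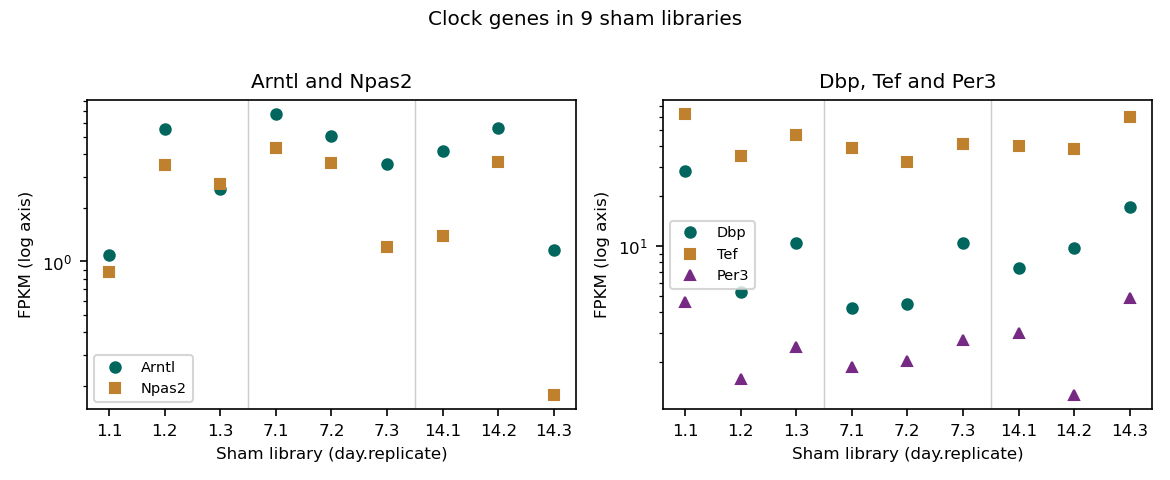
FPKM (log axis) of Arntl and Npas2 (left) and of Dbp, Tef and Per3 (right) in the 9 sham libraries, ordered by day and replicate number, with lines between days. Library 1 of day 1 and library 3 of day 14 hold the lowest Arntl, at 1.09 and 1.17 FPKM, and the highest Dbp, at 28.5 and 17.3 FPKM.

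Spread between replicates set the limit for single genes, and some of the genes with the widest spread overlapped another gene model. The median SD within days was 0.24 on the log2 scale. Of the 20 genes with the largest SD within days among those averaging at least 5 FPKM, 9 overlapped another gene on the same strand that reached 1 FPKM. The share of all tested genes with such an overlap was not counted, so 9 of 20 is not read as an excess. In all 9 the pair correlated below -0.5 across the 9 libraries, given as a description since the pairs share sequence. Where a gene had several such partners, the one with the lowest r was taken. Adnp, a homeobox protein (chromosome 2, 168180986 to 168207112, minus strand), had 0.00, 16.3 and 17.2 FPKM at day 1, 17.7, 12.3 and 4.72 FPKM at day 7, and 17.6, 0.00 and 0.147 FPKM at day 14. The overlapping model Gm20716 had 20.4, 0.00 and 0.00 FPKM at day 1, 0.299, 10.4 and 15.5 FPKM at day 7, and 0.00, 19.2 and 23.1 FPKM at day 14. In 7 libraries one was near 0 where the other was high, and in libraries 2 and 3 of day 7 both were well above 0; r was -0.982 and their sum stayed between 16.3 and 23.3 FPKM. B3gnt2, a glycosyltransferase (chromosome 11, 22759738 to 22860961, minus strand), and the overlapping Gm28048 had r -0.983 and a sum between 13.8 and 23.5 FPKM. In some other pairs the sum was less steady: 3.78 to 14.2 FPKM for Klhdc7a with Mir2139 and 10.4 to 43.7 FPKM for Tomm6 with Gm21981. A value near 0 for a gene with such an overlap cannot on its own be read as a silent locus in that library.

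**Figure D5:**
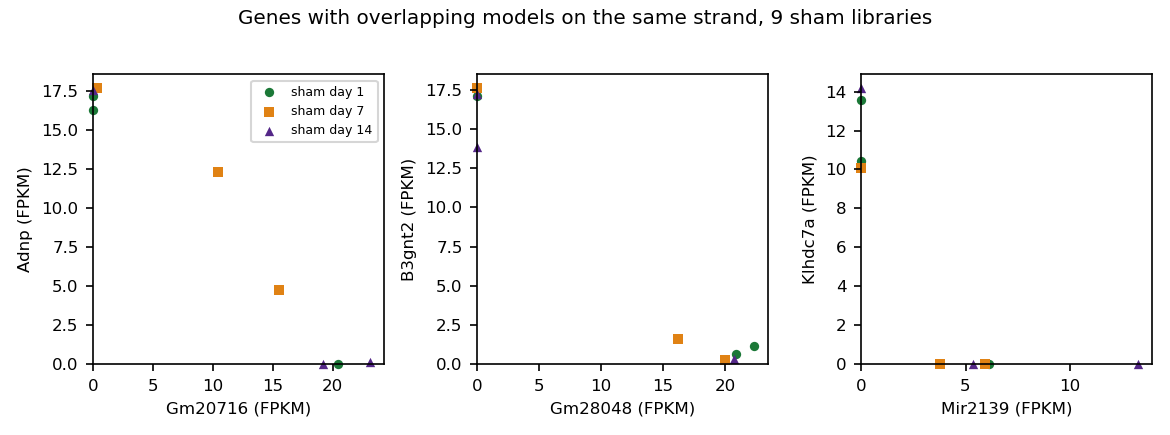
FPKM of Adnp, B3gnt2 and Klhdc7a (vertical axes) against the gene model that overlaps each on the same strand (horizontal axes); each point is 1 of 9 sham libraries, with symbols by day as labelled. Most points lie on or near an axis, where one model is high and the other near 0; for Adnp, libraries 2 and 3 of day 7 lie between, at 12.3 and 4.72 FPKM.

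Other wide genes had no such partner. Bcl6, a transcriptional repressor, had 2.48, 26.8 and 1.80 FPKM at day 1, 9.24, 22.3 and 2.22 FPKM at day 7, and 1.44, 3.77 and 7.85 FPKM at day 14. Cish, an inhibitor of cytokine signalling through STAT5, had 13.6, 2.36 and 9.61 FPKM at day 1, 2.23, 2.63 and 12.2 FPKM at day 7, and 10.3, 13.6 and 4.31 FPKM at day 14. The pair was chosen after seeing the values, so its test is not given. Its p-value did enter the adjustment over 25 pairs above. The 3 libraries highest in Bcl6 were the 3 lowest in Cish. Kctd12, an auxiliary subunit of GABA-B receptors, was listed at 0 in 4 libraries, all 3 of day 1 and library 1 of day 14, and between 7.57 and 10.1 FPKM in the other 5. No fold change is given against a group listed at 0. Hspa1a and Hspa1b were also among these 20 genes, as was Slc7a12, an amino acid transporter of the tubule, with 2.20 to 19.5 FPKM.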

How the data were processed

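RNA-seq of mouse kidney was deposited as 1 table of FPKM per gene and library, computed by the authors. Per the submitters' processing notes the authors used build mm10 and DESeq2, whose role is not stated. Aligner and quantifier: not given in the sources used here. Capital A and N were missing from the identifiers: the fixed start was restored, 54819 of 54848 matched GENCODE M21 (GRCm38, the same assembly), and 7 identifiers on 17 rows were left out. Ratios of values below 0.2 FPKM between sham libraries did not pile up at fixed steps (at most 1.32% in any 1% window), so no reads were recovered and depth is unknown.

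Genes with at least 1 FPKM in at least 3 of 9 sham libraries were kept. log2(FPKM + 1), which understates fold changes of low genes, was fitted with limma 3.58.1 (R 4.3.3, robust, trend) as 3 day means. Calls needed an adjusted p below 0.05 (Benjamini-Hochberg, over 13171 genes). Day contrasts among transplant libraries came from a fit of those 9 libraries alone. Differences between transplant and sham contrasts came from 1 fit of all 18 libraries. Same-numbered sham libraries of different days did not deviate together, so the main fit does not pair them, though this cannot show that they were handled apart. The fit was tested on simulated data. Correlations used exact permutation. Tables were handled in Python 3.11.15 and drawn with matplotlib 3.10.9.

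The members and the 47 gene lists were chosen with earlier results of these data known. Named genes were the 30 highest, up to 5 per list, the 20 with the widest spread, a fixed panel with all clock and sex chromosome genes, and called genes of the day contrasts, of which there were none; genes described as chosen after seeing values fall outside this rule, and some genes it names are not reported here. Alternatives were other pseudocounts, filters and scalings, other sets of libraries, array weights, the replicate block and each sham library left out.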

Additional observations from a re-analysis of the deposited data

Results flagged for a closer look

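Day contrasts that differed between transplant and sham libraries, by limma's test of the difference in the fit of all 18 libraries, are given as transplant minus sham on the log2 scale. For day 14 over day 7, where the median over all genes was -0.16 in transplant and -0.02 in sham, chaperone genes had Hspa5 at -2.07, Hsp90b1 at -1.19, Creld2 at -2.07, Pdia4 at -1.48, Sdf2l1 at -2.24, Hsph1 at -1.10, Hsp90aa1 at -1.004 and Hspb1 at -2.20 (limma adjusted p between 0.000236 and 0.0439). The estimates of all 8 were below 0 in transplant and above 0 in sham, with Hsph1 at -0.15 and Hsp90aa1 at -0.22 in transplant, near the median of all genes. In transplant, 1 of the 8 contrasts was called (Hspa5). The sham day 14 values that singled out the chaperone genes also enter these differences. In the list of the circadian clock and its output, the differences for day 7 over day 1 were 1.58 for Hlf and 2.04 for Usp2. For day 14 over day 7 it was -1.90 for Per2, and for day 14 over day 1 it was 1.51 for Hlf and -2.41 for Cdkn1a. Cdkn1a, which is not a core clock gene, had -2.52 in transplant and -0.11 in sham. In sham, none of these contrasts was called. Causes were not tested.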

How the results depend on the processing

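The count of 0 genes called between sham days held under most alternatives. It was 1 gene for day 7 over day 1 with only the 2 groups compared (Kctd12), and 1 gene for day 14 over day 1 with all 18 libraries (Hsph1). With each sham library left out in turn the counts were 0 to 1 for day 7 over day 1, 0 to 2 for day 14 over day 7, 0 to 3 for day 14 over day 1 and 0 to 3 across the 3 days. Every call arose without library 1 of day 14, where Kctd12, 2900097C17Rik and Gm44429 were called. With the replicate number as a block 0 genes were called in each comparison. Same-numbered sham libraries correlated between -0.126 and 0.037 in their deviations, which gives no sign of pairing but cannot show its absence. The median of the heat shock and protein folding list kept its sign under all 23 alternatives, which were added after seeing the data: 0.26 to 0.58 for day 14 over day 7 and 0.31 to 0.65 for day 14 over day 1, the lowest without library 1 and the highest without library 3 of day 14. Of 368 values for 16 named fold changes, none changed sign and 1 passed the threshold (Hsph1, above). The share held by the 10 most abundant genes was 24.98% without the mitochondrial chromosome and 13.5% without its nuclear copies as well, and that of the 100 most abundant 40.1% and 28.8%. The unknown depth and 3 libraries a day limit all day contrasts.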
